A study of Mus musculus with 15 samples.

Results

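Orphan CpG-dense windows are stretches of the genome that are rich in CpG dinucleotides, as promoters often are, but lie away from protein-coding genes. They were described here in micro-dissected dentate gyrus, the part of the hippocampus where granule neurons form in the adult, of 15 female C57BL/6JRj mice aged 7.5 months. DNA methylation had been measured by reduced representation bisulfite sequencing (RRBS), which cuts DNA with a restriction enzyme and reads the short CpG-rich fragments after bisulfite has converted unmethylated cytosines. There were 3 groups of 5 mice. Standard mice spent 6 months in standard cages, enriched mice spent the same 6 months in an enriched environment, and withdrawal mice had 3 months of enrichment and then 3 months back in standard cages. No group carried a transgene or a drug by the labels. Methylation values hold no expression, so the dissection could not be checked against marker genes, and all cell types of the tissue are averaged in each value.

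A window was 1 kb of an autosome, and it was kept when it held at least 10 CpG rows, a row being a CpG cytosine on a given strand. It also had to lie outside every protein-coding gene of RefSeq GRCm38 and more than 5 kb from any gene end. This gave 1070 windows of 9478 CpG-dense autosomal windows (11.3%) and of 112528 autosomal windows with any CpG row. They held 15350 CpG rows, lay on all 19 autosomes with 34 to 84 windows on each, and had 876 different nearest protein-coding genes at a median distance of 31.8 kb. Of them, 255 lay more than 100 kb from any protein-coding gene. Most stood alone: they formed 1026 runs of directly neighbouring windows, of which 991 were a single window. The other CpG-dense windows were 7433 at gene ends (a gene end in the window or within 5 kb) and 975 inside genes. The percentages came without read counts, so sequencing depth is unknown. At the limits of the rule, the 243 windows with exactly 10 rows had a median of 24.8% and 410 otherwise fitting windows with 9 rows had 43.4%, while the 47 windows 5 to 6 kb from a gene had 4.82% and the 49 windows 4 to 5 kb away had 3.46%.

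Methyl groups on CpG cytosines are found over most of the mammalian genome, and CpG islands, dense clusters of the dinucleotide, are the main exception. Islands at promoters of widely used and developmental genes are usually free of methylation. Orphan islands lie away from known gene starts, and many of them are promoters of noncoding RNAs, starts of unannotated transcripts, or regulatory elements of developmental genes. At imprinted loci, methylation of such elements differs between the maternal and the paternal copy.

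Several orphan windows touch annotated promoters by their position. Promoters of long noncoding RNAs (lncRNAs) from RefSeq, GRCm38.p6, each 250 bases before to 50 bases after the gene start, are given 5′ to 3′ on the gene's strand for 3 contrasting cases. Capitals mark CpG dinucleotides with a methylation value in the table. Chaserr (chr7:73558346-73558645, minus strand), a lncRNA beside and known to restrain the chromatin remodeller Chd2, shows an unmethylated promoter. Meg3 (chr12:109540746-109541045, plus strand) is an imprinted lncRNA made from the maternal copy. The gene 4933414I15Rik (chr11:50943676-50943975, minus strand) had the most methylated promoter.
Chaserr: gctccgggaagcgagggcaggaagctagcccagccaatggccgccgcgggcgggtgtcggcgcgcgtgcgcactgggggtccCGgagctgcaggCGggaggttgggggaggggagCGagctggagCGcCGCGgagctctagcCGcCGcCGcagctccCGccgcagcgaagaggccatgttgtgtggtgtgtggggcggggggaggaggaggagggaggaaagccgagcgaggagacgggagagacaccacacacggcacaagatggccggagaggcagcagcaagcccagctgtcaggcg
Meg3: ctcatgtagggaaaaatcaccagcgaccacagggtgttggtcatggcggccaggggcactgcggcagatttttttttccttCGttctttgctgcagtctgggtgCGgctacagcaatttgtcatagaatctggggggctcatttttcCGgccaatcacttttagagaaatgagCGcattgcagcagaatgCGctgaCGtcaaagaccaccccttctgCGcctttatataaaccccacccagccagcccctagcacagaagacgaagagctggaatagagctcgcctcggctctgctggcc
4933414I15Rik: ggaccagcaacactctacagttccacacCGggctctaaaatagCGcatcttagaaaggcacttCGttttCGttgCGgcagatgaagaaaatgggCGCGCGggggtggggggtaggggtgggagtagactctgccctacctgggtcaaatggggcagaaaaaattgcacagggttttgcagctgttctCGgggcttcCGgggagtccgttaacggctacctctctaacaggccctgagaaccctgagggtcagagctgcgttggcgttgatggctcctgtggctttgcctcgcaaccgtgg

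In Chaserr 10 of 30 CpGs had values, in Meg3 7 of 13 and in 4933414I15Rik 10 of 16. Mean methylation of these CpGs over the mice was 0.987% for Chaserr, 10.4% for Meg3 and 83.7% for 4933414I15Rik. The Meg3 mean rests largely on standard mouse 1 at 92.5%, and without that mouse it was 4.04%, a value computed after the data were seen. In all, 115 such promoters of 104 lncRNA genes touched 97 orphan windows, and 56 of them had at least 5 CpG rows. Of these 56 promoters 51 were methylated at under 20% and 4 at 20% to 80%, and 4933414I15Rik alone exceeded 80%. The letters CCGG, which the enzyme usually used in RRBS cuts, stood in 88.7% of the 115 promoters, against 35.5% of 11588 lncRNA promoters and 62.2% of 21263 protein-coding promoters in the table. The motif GGGCGG, searched on both strands as all motifs here, is the core of the site bound by Sp1 and was in 48.7%, 16.3% and 46.2% of the same sets. The cyclic AMP response element TGACGTCA was in 1.74%, 0.975% and 2.23%, and the Meg3 promoter held it. The median GC content was 56.7% in the orphan set, 48.3% in all lncRNA promoters and 56.3% in protein-coding promoters. Matches are letters in a window, not shown binding sites, and these motifs themselves hold a CG, for which the windows were chosen.

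Of the orphan windows 5 held a microRNA gene, and the mature microRNAs below show what those loci make, with the seed (bases 2 to 8) in capitals. Mir9-2 and Mir9-3, which lie on different chromosomes, give the same mature sequences, so they share a seed. The microRNA miR-9 is a regulator of neural progenitors.
miR-9-5p: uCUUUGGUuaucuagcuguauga
miR-9-3p: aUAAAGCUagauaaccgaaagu
miR-193a-5p: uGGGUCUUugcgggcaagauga
miR-760-3p: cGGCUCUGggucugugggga

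All 5 windows were almost free of methylation. Their means over all CpG rows ran from 1.03% (Mir760) to 3.07% (Mir9-2). Mir193a lay at 1.60% and Mir9-3 at 2.35%, and the fifth window held Mir124a-3, a locus of the neuronal microRNA miR-124.

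Orphan windows were divided between low and high methylation, whereas gene-end windows were nearly all low. At least 3 complete CpG sites, those measured in each of the 15 mice, were needed for a window to be tested, and 601 of the 1070 orphan windows (56.2%) had them, with a median of 6. Their median methylation was 13.6% (quartiles 3.25% and 86.5%). By their means 343 (57.1%) were low, under 20%, 93 (15.5%) were intermediate, and 165 (27.5%) were high, over 80%. Of 3057 tested gene-end windows 94.4% were under 20%, and their median was 1.84%. Windows inside genes, with a median of 6.43% over 441, had 68.9% under 20% and 12.7% over 80%. The classes were set side by side with no test, since they are parts of the same genome in the same mice. They also differed in CpG density, with a median of 12 CpG rows in orphan, 15 in gene-end and 13 in inside-gene windows, and were not matched for it. Among orphan windows with at least 20 CpG rows a larger share was low and a smaller share high, as given at the end. Over all rows of all 1070 orphan windows the division was nearly the same, at 638, 161 and 271.

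**Figure D1:**
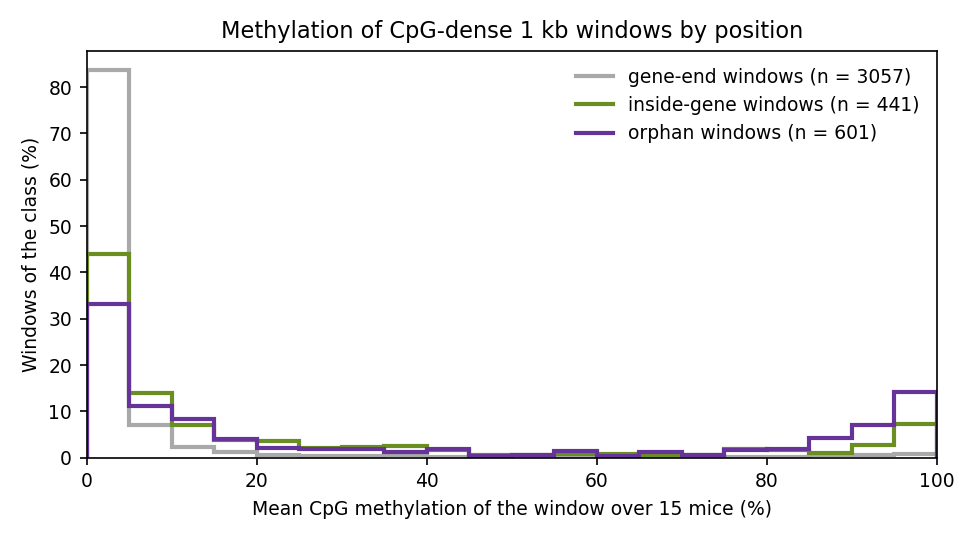
Distribution of mean CpG methylation (%, horizontal) over tested windows in bins of 5 percentage points, as the percent of each class (vertical), for orphan, inside-gene and gene-end windows. Orphan windows stand at both ends, with 57.1% under 20% and 27.5% over 80%, while 94.4% of gene-end windows lie under 20%.

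In low and high windows the complete CpG sites mostly lay close together in level, which the limits on the window mean in part require. Both strands of a CpG can count as sites here, and rows that were not complete are left out. The range over its complete sites had a median of 7.62 percentage points in windows under 20% and of 7.32 points in windows over 80%. In intermediate windows the median range was 37.4 points, and in 28 of the 93 it was over 50 points, so that sites this far apart in level lay within the same 1 kb. At CpGs read on both strands, 2268 in orphan windows, the strands differed by a median of 2.34 points and 87.8% lay within 10 points. The spread between mice followed the level: the median pooled SD within groups was 3.09 points in low, 9.47 in intermediate and 2.89 in high windows. Mice resembled each other closely across the tested orphan windows, with Pearson r from 0.962 to 0.985 for pairs of mice, a description across windows that share libraries.

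What RefSeq placed in a window went with its methylation. The 31 windows with a tRNA gene, which RNA polymerase III reads, had a median of 1.71% over all rows, and 30 of them lay under 20%. The exception, chr13:23300001-23301000 with n-TVcac4, lay at 35.2%, and over its complete sites alone the standard mice averaged 61.5%. The 298 windows overlapping a lncRNA had a median of 4.33% (239 low, 31 intermediate, 28 high). The 97 windows touching a listed lncRNA promoter, 92 of which overlapped a lncRNA, had 2.02%, against 6.06% in the 206 that overlapped a lncRNA but no listed promoter. The 63 windows overlapping pseudogenes were divided, with 27 low, 10 intermediate and 26 high and a median of 32.2%. The 677 windows without any RefSeq gene made up 63.3% of the set, had a median of 19.4%, and were low in 342, intermediate in 121 and high in 214. Methylation also differed with distance: the median was 4.82% at 5 to 20 kb from the nearest protein-coding gene (381 windows), 11.8% at 20 to 100 kb (434) and 33.0% beyond 100 kb (255).

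**Figure D2:**
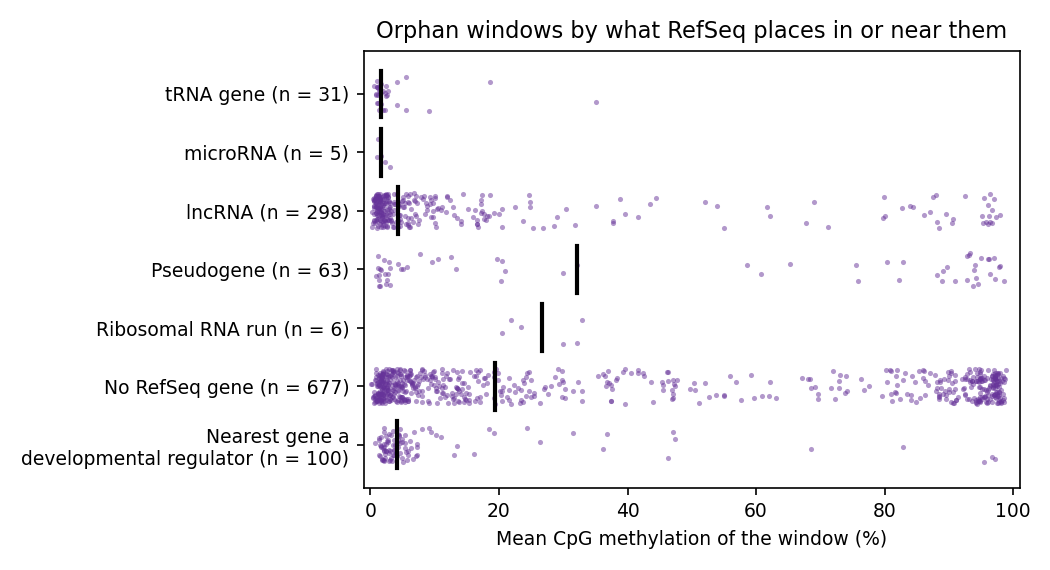
Mean CpG methylation over all rows (%, horizontal) of each orphan window, a point each, grouped by overlapping RefSeq gene type or nearest gene; black bars are medians and a window can appear in several groups. The tRNA and microRNA windows lie near 0 with medians of 1.71% and 1.60%, while pseudogene windows spread over the whole range around 32.2%.

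Some orphan windows had a gene that patterns the embryo as their nearest protein-coding gene, at short or long distance. A developmental regulator was the nearest protein-coding gene of 100 windows, and 66 of the 206 genes of that list were among the 876 nearest genes. Such genes made up 7.53% of the nearest genes and 0.941% of all protein-coding genes, a description with no test. The length of the gene-free stretches around the genes was not taken into account. Of the 100 windows 87 were low, 9 intermediate and 4 high, with a median of 4.23%. The 5 with the most CpG rows were near Zic5, a zinc finger factor of neural development (1.77% over the complete sites, 2.50% over all rows), Onecut1 (2.70% and 2.13%), the neural progenitor factor Sox1 (1.84% and 2.94%, in the lncRNA Sox1ot), the proneural factor Neurog1 (1.44% and 18.4%) and the homeobox factor Msx1 (2.77% and 5.40%). The Neurog1 window thus differs with the rows used: 6 of its 26 rows were complete, and over all rows its mice ran from 1.56% to 26.5%. Apart from the ribosomal run described below, Pax2, a patterning factor, had the most orphan windows of any nearest gene (6), at 1.29% to 24.3%. They were 5.60 to 75.6 kb from it. The 5 windows nearest to Tbx3 lay at 2.11% to 36.2%, at 6.28 to 412.5 kb from the gene. In the Sox1 window the standard mice lay at 0, 3.52, 3.26, 0.707 and 0.788%, the enriched mice at 0.519, 0.466, 2.42, 5.50 and 0.246%, and the withdrawal mice at 2.32, 4.82, 0, 1.19 and 1.86%. The groups overlapped, and limma gave adjusted p = 0.995 for the enriched and 0.998 for the withdrawal mice against the standard mice.

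Windows with a gene of neuronal activity or adult neurogenesis as nearest gene were few and mostly of intermediate methylation. Genes of that list of 62 made up 0.457% of the nearest genes and 0.283% of protein-coding genes, and were nearest to 5 windows, of which 1 was low and 4 intermediate, with a median of 37.4%. Both windows nearest to Prox1, the transcription factor that sets granule neuron identity, lay more than 200 kb from it. In that at chr1:190384001-190385000, 213.2 kb away with 5 complete sites, the standard mice had 46.8, 38.3, 40.4, 29.0 and 26.3%. The enriched mice had 45.1, 42.8, 36.4, 33.0 and 49.8%, and the withdrawal mice 23.5, 29.4, 27.8, 31.6 and 19.4%. Every withdrawal mouse lay below every enriched mouse there, whereas both overlapped the standard mice. The log2 difference of withdrawal against enriched was -0.88, on the scale explained with the tests below, and did not pass limma's test (adjusted p = 0.999). The other windows of the list were near Bcl11b, a factor of dentate granule neuron maturation, at 19.1% (6 complete sites), the growth factor Vegfa at 79.0% (67.7% over all rows), and Creb1 at 56.0% over all rows.

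An imprinted gene was nearest to 11 windows, 5 low, 2 intermediate and 4 high. Nearest does not mean close here. The high windows had as nearest gene Ndn (96.7%, 503.3 kb away, in the lncRNA A230057D06Rik), Rtl1 (94.8%, 265.6 kb), Snrpn (94.2% over all rows, 87.8 kb) and Zfp64 (94.3%, 14.4 kb). Low ones included windows nearest to Plagl1 (2.02%, 28.8 kb), Cdkn1c (5.79% over all rows, 12.3 kb) and Dio3 (9.82%, 89.2 kb), all growth or hormone regulators. The Slc38a4 window lay at 73.2%, where standard mice averaged 70.8 ± 7.62%, enriched mice 73.8 ± 12.9% and withdrawal mice 74.9 ± 8.74% (SD, n = 5). The Meg3 promoter window had no site with a value in all mice, so the mice there are averaged over different rows. Standard mice had 92.5, 6.64, 0, 27.0 and 29.2%, enriched mice 0, 7.75, 2.56, 4.51 and 0%, and the 4 withdrawal mice with a value 13.1, 18.3, 23.3 and 9.08%. The value of 92.5% rests on 3 of the 12 rows. This window could not be tested.

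The longest run of orphan windows is a copy of the ribosomal RNA repeat, and it held the window with the most CpG rows of all (146). Ribosomal DNA is present in many copies, and reads of all copies that match this one cannot be told apart. The run covers 6 windows at chr17:39843001-39849000, nearest to Esp38, with Rn18s-rs5, a pseudogene of the 18S ribosomal RNA, at 39846354 to 39848202. Its 445 CpG rows were mixed: 177 were low by the same limits, 260 intermediate and 8 high. Over its 279 complete sites the standard mice had 27.6, 29.0, 23.3, 19.8 and 25.6% (25.1 ± 3.63%, SD, n = 5). The enriched mice had 30.1, 22.7, 27.8, 26.7 and 24.9% (26.5 ± 2.82%), and the withdrawal mice 25.3, 23.9, 19.7, 25.7 and 25.2% (24.0 ± 2.48%). The ranges of the 3 groups overlapped in part, and 3 of the 5 enriched mice lay above every withdrawal mouse. In the window with the most complete sites (73) limma gave adjusted p = 0.965 for the enriched and 0.998 for the withdrawal mice against the standard mice, and 0.999 between withdrawal and enriched mice. The strands differed by a median of 11.8 points at 154 CpGs of the run, more than over all orphan windows.

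**Figure D3:**
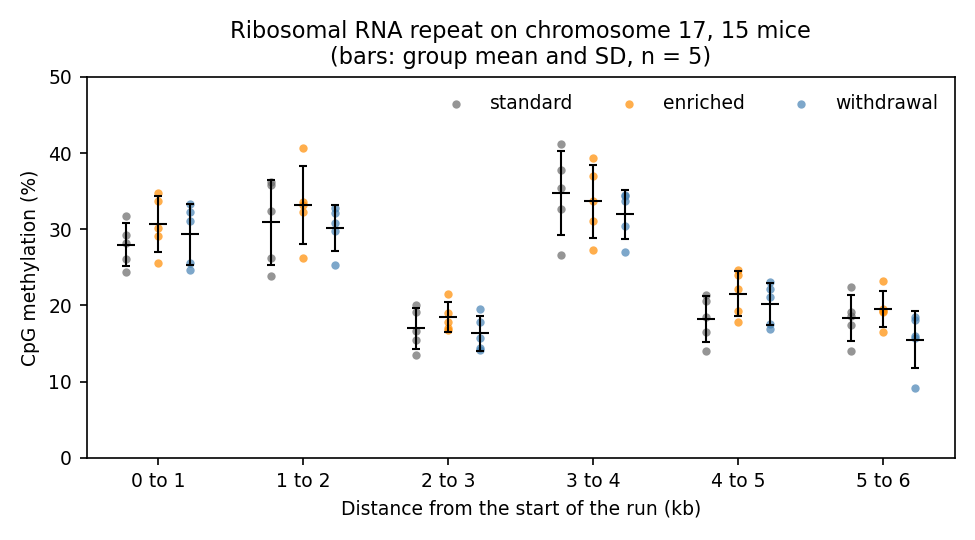
CpG methylation (%, vertical) of the 15 mice in the 6 windows of the ribosomal RNA run, by distance from its start (kb, horizontal); points are mice, bars group means and SD (n = 5). The windows differ in level, the highest at 3 to 4 kb with a standard mean of 34.7%, while the groups overlap in each.

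The remaining runs were short. A run of 4 windows at chr12:20231001-20235000, nearest to Gm32719, stayed between 64.9% and 79.3% in the group means of all its windows. A run of 3 windows at chr10:7390001-7393000, over the pseudogene Gm21321, lay between 0.630% and 3.42% in the group means. The tested high windows with the most CpG rows were near Lrp1b (98.4%), an endocytic receptor, AA792892 (92.0%) and Cpeb4 (98.3%), which binds RNA at synapses. The low window with the most rows outside the ribosomal run was near Slc47a1 (50 rows), at 1.92% over its 7 complete sites and 1.26% over all rows.

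Housing was compared first by the mean over the 601 tested windows. It was 36.0 ± 0.451% (SD, n = 5, 35.3 to 36.6%) in standard mice, 36.1 ± 0.609% (35.5 to 37.0%) in enriched mice and 36.3 ± 0.493% (35.7 to 36.9%) in withdrawal mice. Enriched minus standard was 0.140 points, withdrawal minus standard 0.335 points and withdrawal minus enriched 0.195 points, all smaller than the spread between mice, and the groups overlapped. The windows over 80% averaged 93.4 ± 0.589%, 93.8 ± 0.578% and 93.8 ± 0.456% in the 3 groups, and the windows under 20% 5.80 ± 0.720%, 5.97 ± 0.472% and 5.90 ± 0.603%. The 93 intermediate windows averaged 45.5 ± 1.29%, 45.2 ± 1.98% and 46.6 ± 1.27%. Withdrawal minus enriched was 1.42 points there and withdrawal minus standard 1.12 points. The mice overlapped, at 43.3 to 46.6%, 43.4 to 48.5% and 45.2 to 48.5% in the 3 groups, and this was not tested. By annotation, the 172 tested lncRNA windows averaged 20.04 ± 0.567% in standard mice, 20.6 ± 0.695% in enriched mice and 20.4 ± 0.562% in withdrawal mice. Windows near developmental regulators (64 tested) averaged 9.84 ± 1.11%, 9.93 ± 0.856% and 10.4 ± 0.541%. Pseudogene windows (29 tested) averaged 54.4 ± 1.52%, 55.5 ± 1.89% and 55.9 ± 1.20%, also with overlap between the groups. Mice of the withdrawal group lay closer to each other, with no test. In each window the absolute distance of a mouse from the mean of the other 4 of its group was taken. Averaged over windows, this distance was 4.62 points among standard mice, 4.64 points among enriched mice and 3.85 points among withdrawal mice. Missing values moved with it, at 15.1%, 15.3% and 8.75% of orphan CpG rows, with most missing in standard mouse 1 (32.5%) and fewest in withdrawal mouse 4 (2.56%). Their part in the distance was not tested.

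No orphan window passed the test in any comparison. The test was limma on log2((percent + 5)/(100 - percent + 5)) of the window mean, fitted to all 15 mice and all 15677 tested windows of the table, with Benjamini-Hochberg adjustment over them. A log2 difference below is a difference on that scale. Each p-value sets such a difference against the spread between mice within groups, as limma estimates it. For enriched against standard, 0 of the 601 orphan windows passed an adjusted p under 0.05, as did 0% of all windows tested, and the smallest adjusted p was 0.653 by limma. At an unadjusted p under 0.05 there were 43 orphan windows (7.15% of the 601, with 22 higher and 21 lower in enriched mice). The table had 5.71% (3.05% higher and 2.66% lower). Withdrawal against standard also called 0 (0% in the table, smallest adjusted p 0.995 by limma). Under the unadjusted limit lay 28 orphan windows (4.66%, with 20 higher and 8 lower), where the table had 4.8% (2.9% higher, 1.9% lower). Withdrawal against enriched called 0 as well (0% in the table, smallest adjusted p 0.964 by limma). Here 29 orphan windows lay under the unadjusted limit (4.83%, with 23 higher and 6 lower), where the table had 4.39% (2.67% higher, 1.72% lower). Over all 3 groups together limma called 0 windows (0% in the table), and 42 (6.99%) had an unadjusted p under 0.05, against 5.08% in the table. The shares were not tested against those of the table.

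Complete separation of the mice was rare. Enriched mice lay wholly above standard mice in 2 orphan windows, 0.333% of the 601 against 0.376% of all windows tested, and wholly below in 1 (0.166% against 0.313%). Withdrawal mice lay wholly above standard mice in 3 (0.499% against 0.51%) and wholly below in 0 (against 0.293%). They lay wholly above enriched mice in 9 (1.498% against 0.408%) and wholly below in 2 (0.333% against 0.242%), the Prox1 window being among the latter. These shares were not tested against each other. Group means differed by more than 10 points in 26, 21 and 32 windows for the 3 comparisons in the order above, by at most 29.6, 29.0 and 32.9 points. Of these, 14, 13 and 18 were among the 93 intermediate windows.

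**Figure D4:**
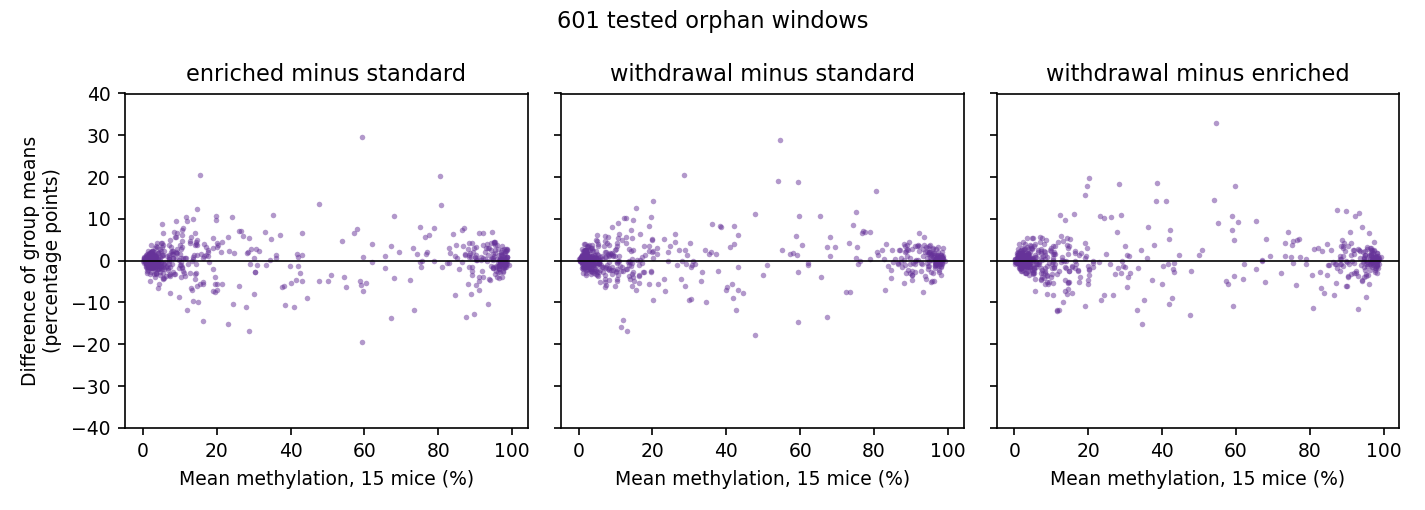
Difference of group means (percentage points, vertical) against mean methylation over 15 mice (%, horizontal) for the 601 tested orphan windows, a point each, in the 3 comparisons. Of the differences over 10 points, 26, 21 and 32 windows from left to right, 14, 13 and 18 lie between 20% and 80%.

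The windows with the smallest p-values are given with every mouse of the compared groups, since they show what a difference of this size looks like in 5 mice. For enriched against standard the smallest p belonged to chr1:40955001-40956000, 98.1 kb from Tmem182. Standard mice had 95.8, 92.1, 93.6, 93.3 and 96.6%, enriched mice 84.3, 70.0, 76.0, 84.5 and 92.5%, and withdrawal mice 98.2, 87.2, 94.6, 91.5 and 95.4%. The enriched mice were lower but overlapped the standard mice at the edge (log2 difference -1.27, SE 0.35, adjusted p = 0.653 by limma). With all 16 rows in place of the 5 complete ones the log2 difference was 0.036. Next was chr19:8438001-8439000, 32.9 kb from Slc22a30, a gene of the organic anion transporter family. Standard mice had 56.0, 83.5, 68.0, 55.7 and 78.2%, enriched mice 90.3, 78.3, 85.8, 95.0 and 92.8%, and withdrawal mice 96.4, 88.7, 64.7, 86.9 and 88.6%. Standard mice averaged lowest, with overlap, on 3 complete sites (adjusted p = 0.788 by limma).

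The window at chr12:105962001-105963000, 47.1 kb from Vrk1, a nuclear kinase of dividing cells, was among the smallest p-values in both comparisons with the standard mice, which they share. Standard mice had 3.33, 1.63, 3.06, 7.51 and 0%, enriched mice 0, 0, 0.813, 0 and 0%, and withdrawal mice 0.450, 0, 0, 0 and 0%. It was a low window, on 3 complete sites, with 4 standard mice above all others and standard mouse 5 at 0 (adjusted p = 0.788 for enriched and 0.995 for withdrawal by limma). At chr5:23418001-23419000, in the lncRNA 5031425E22Rik and 14.0 kb from Kmt2e, a regulator of chromatin, all standard and enriched mice were at 0. The withdrawal mice had 0.758, 8.33, 5.92, 0 and 5.21%, on 4 complete sites (adjusted p = 0.995 against standard by limma). At chr11:98294001-98295000, in the lncRNA Gm31194 between Cdk12 and the neuronal factor Neurod2, the standard mice had 0, 0.282, 1.69, 0 and 0%. The withdrawal mice had 1.71, 2.13, 1.85, 3.33 and 4.98% and did not overlap the standard mice, while the enriched mice (0 to 1.96%) overlapped both (adjusted p = 0.995 against standard by limma).

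Withdrawal against enriched gave 3 further windows. At chr4:150879001-150880000, between Errfi1, which restrains growth factor receptor signalling, and Park7, the enriched mice had 100, 94.9, 100, 96.9 and 100% and the withdrawal mice 90.3, 74.0, 82.4, 96.0 and 91.5%. The standard mice averaged in between (94.3 ± 3.99%, SD, n = 5), and the groups overlapped, on 4 complete sites (log2 difference -1.56, SE 0.39, adjusted p = 0.964 by limma). At chr13:23396001-23397000 near Abt1 all enriched mice were at 0 and the withdrawal mice at 3.48, 2.61, 5.43, 2.37 and 8.48%, with standard mice at 0 to 6.44%. At chr2:151073001-151074000, over the small RNA gene Gm24199, the enriched mice had 79.5, 90.6, 93.6, 83.0 and 90% and the withdrawal mice 94.9, 100, 100, 95.1 and 100%. On its 4 complete sites the standard mice ran from 84.5 to 100% and overlapped both groups. Neither of these last windows passed (adjusted p = 0.999 by limma for each), although their enriched and withdrawal mice did not overlap.

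**Figure D5:**
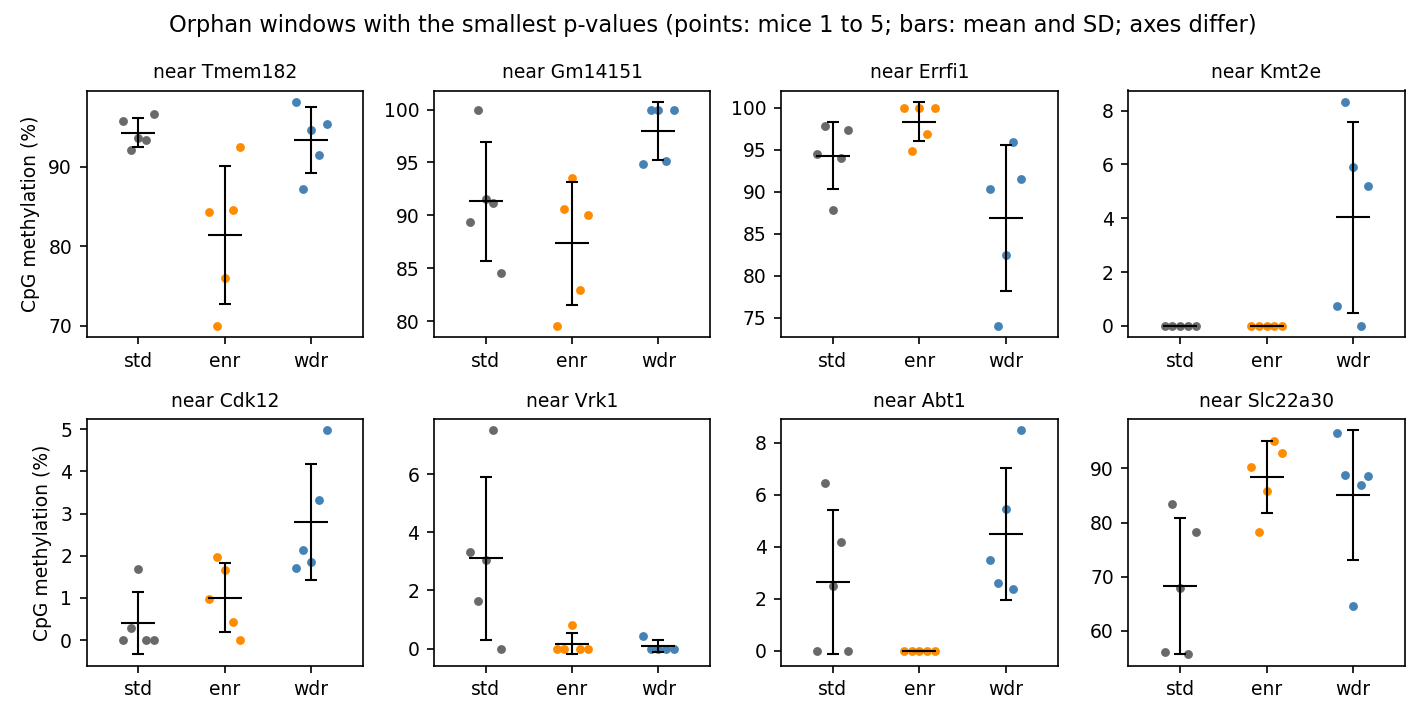
CpG methylation (%, vertical, a scale of its own in each panel) of the 15 mice in the 8 orphan windows with the smallest p-values, by group (std, standard; enr, enriched; wdr, withdrawal); points are mice 1 to 5, bars mean and SD (n = 5). In the panels near Cdk12, Abt1 and Gm14151 the withdrawal mice lie wholly above the standard or the enriched mice, and in the other panels the compared groups overlap.

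Mice differed most in windows of intermediate methylation with few complete sites. At chr2:159687001-159688000, 623.4 kb from the nearest protein-coding gene, Gm826, standard mice had 21.0, 7.07, 58.0, 81.1 and 48.5%. Enriched mice had 79.1, 60.4, 87.1, 86.0 and 51.2%, and withdrawal mice 39.3, 73.4, 63.1, 80.2 and 54.0%. The groups overlapped (adjusted p = 0.822 for enriched against standard by limma). Near Unc5cl (chr17:48647001-48648000) the mice ran from 23.0% to 100%. Near Sncaip (chr18:52953001-52954000), which encodes a partner of alpha-synuclein, withdrawal mice had 62.0 to 84.3% and the enriched mice 0 to 75.1%. These 3 windows had 3 complete sites each, and over all rows the mean of the window near Gm826 was 38.4% in place of 59.3% and that near Unc5cl 29.2% in place of 47.7%.

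At single CpG sites 0 of 3827 tested sites in orphan windows passed limma in each of the 3 comparisons, as did 0% of the 100562 sites of the table. The comparison of enriched with standard mice had 186 sites with an unadjusted p under 0.05 (5.15% in the table), that of withdrawal with standard mice 146 (4.42%) and that of withdrawal with enriched mice 130 (4.3%). The smallest adjusted p by limma was 0.447, 0.656 and 0.583 in this order. For any difference among the 3 groups limma called 0 orphan sites, against 0.000994% of the table, and 163 (4.26%) had an unadjusted p under 0.05, against 4.62%. The smallest for enriched against standard was a site at chr1:103479510, plus strand, 1288 kb from Cdh20, with all standard mice at 100% and the enriched mice at 74.1, 96.2, 91.7, 62.5 and 69.0%. Every enriched mouse lay below every standard mouse there (adjusted p = 0.447 by limma), and the withdrawal mice were at 90.4 to 100%. A minus-strand site at chr4:150879850, in the Errfi1 window, was at 100% in all enriched mice and at 73.3, 64.4, 91.8, 92.5 and 84.4% in the withdrawal mice (adjusted p = 0.583 by limma).

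A site at chr5:119370795, 299.5 kb from Tbx3, a T-box factor of development, was at 0 in all standard and enriched mice. The withdrawal mice had 28.6, 0, 13.3, 24.4 and 39.3% (log2 difference 2.41, SE 0.53, adjusted p = 0.656 against standard and 0.806 against enriched by limma). Without withdrawal mouse 2, the mouse at 0, limma called it in both comparisons (log2 difference 3.01, adjusted p = 0.014). A minus-strand site at chr6:88075438, 8.47 kb from Rpn1, was added after its values were seen, because leaving out a mouse called it too. It was at 0 in all standard and enriched mice and at 13.04, 48.0, 32.1, 0 and 17.4% in the withdrawal mice. Without withdrawal mouse 4 limma gave adjusted p = 0.028 against standard and 0.0438 against enriched. Both calls rest on leaving out the withdrawal mouse that lacked the methylation. At chr12:88049076, near Gm6803, standard mice had 96.2 to 100% and enriched mice 64.5 to 93.5% (adjusted p = 0.663 by limma).

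Cytosines outside CpG were almost unmethylated in orphan windows, where the values also hold unconverted cytosines. Standard mice averaged 0.688 ± 0.046%, enriched mice 0.676 ± 0.059% and withdrawal mice 0.694 ± 0.033% (SD, n = 5, over 14488 rows with a value in all mice). The level went with the CpG class, at 0.542%, 0.879% and 0.913% in low, intermediate and high windows of the standard mice. Of 581 windows with at least 10 such rows 11 exceeded 2%. The highest, chr2:98666001-98667000, had 5.17% non-CpG and 88.0% CpG methylation, and the Prox1 window described above had 2.16%.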

How the data were processed

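The authors deposited percent methylation by measured cytosine, strand and mouse in a table of the whole series, with missing values and no counts. The submitters' processing notes name mm10, Trim Galore 0.4.0, cutadapt 1.8.1, Bismark 0.16.1 and methylKit 1.5.2, without parameters; any minimum coverage is not given in the sources used here. Rows before the chromosome order restarts were taken as CpG. Genes and their types came from RefSeq GRCm38.p6, the build of mm10. Trmt61b is listed there as a lncRNA, so the window at its end (chr17:71598001-71599000) was kept as an orphan window. All 658 CpG rows inside the lncRNA promoters fell on a CG of their sequence. Groups came from the housing labels, and 0 value columns were left unused.

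Window means used sites with a value in all mice; levels called over all rows average each mouse over its own rows. Tests were limma 3.58.1 in R 4.3.3, two-sided, trend on, in windows with at least 3 complete sites or at sites with a range of at least 5 points; the scripts were tested on simulated data. Named windows were those with the smallest p per comparison, most CpG rows per class or list, largest SD, longest runs, or a microRNA or lncRNA; tRNA windows and the remaining imprinted windows were added after the values were seen. Members and lists were chosen with earlier results of these data known. Alternatives changed the offset, scale, site completeness, window rule, mice and replicate block.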

Additional observations from a re-analysis of the deposited data

Results flagged for a closer look

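In each group of 5 mice the mouse farthest out was compared with its nearest neighbour by Dixon's test. Of at most 174 groups (58 named windows and sites) 17 were marked, and chance marks about 1 in 20 groups when values are normally distributed. Many values here sit at an end of the scale. Where all other mice of a group share a value, the remaining mouse is marked however near it lies. The count of marks therefore cannot be set against the chance rate.

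Highest mice in low windows were withdrawal mouse 3 at 5.38% (Mir124a-3), withdrawal mouse 5 at 6.52% (Msx1), standard mouse 1 at 6.67% (Mir9-3), enriched mouse 3 at 4.67% (Onecut1), enriched mouse 1 at 6.21% (Mir9-2) and enriched mouse 5 at 6.12% (Zic5). Others were standard mouse 3 at 1.69% (Cdk12), and enriched mouse 3 at 0.813% and withdrawal mouse 1 at 0.45% (Vrk1), in groups otherwise at 0.

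Lowest mice in high windows were enriched mouse 1 at 87.3% (Zfp64), withdrawal mouse 5 at 84.1% (AA792892) and at 92.7% (Ndn). In the intermediate window near Vegfa enriched mouse 3 was lowest at 52.2%. In the chromosome 12 run, withdrawal mouse 2 was lowest at 64.9% and standard mouse 2 highest at 81.2%. At single sites, withdrawal mouse 4 was lowest at 90.4% near Cdh20 and standard mouse 4 at 91.3% near Errfi1.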

How the results depend on the processing

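The number of orphan windows called was 0 in every alternative run. Windows with an unadjusted p under 0.05 fell from 43 to 28 without enriched mouse 1 (enriched against standard). They fell from 28 to 18 without withdrawal mouse 2 (withdrawal against standard). With all sites there were 45 in place of 29 (withdrawal against enriched). That run also took in windows with fewer than 3 complete sites, so its count comes from more windows and is not a rise in share. Orphan sites called ranged from 0 to 1 when leaving out each mouse, for withdrawal against standard and against enriched, with 1 without withdrawal mouse 2 and 1 without withdrawal mouse 4, and were 0 for enriched against standard. The mean differences ranged from -0.0857 to 0.307, from 0.165 to 0.494 and from 0.0272 to 0.420 points when leaving out each mouse; with CpG sites weighing equally withdrawal minus enriched was -0.0142 points. The share of windows under 20% moved from 57.1% to 44.4% with class limits of 10% and 90%, 84.0% with at least 20 CpG rows, 51.6% beyond 20 kb and 45.3% when genes of every type bound the windows. The intermediate share became 34.3% and 9.88% under the first and second of these, and the high share 21.3%, 6.17% and, with genes of every type, 37.3%. The Tmem182 window reversed with all sites, to a log2 difference of 0.036. Of 340 alternatives over 17 named differences 339 kept direction. These differences were picked from the same mice, nearly all for their small p-values, and most alternatives only leave out 1 mouse. A kept direction was therefore nearly fixed in advance and is no support for them. Of 66 named windows 9 moved in level by more than the SD between mice with all rows.

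Replicate numbers gave no sign of pairing in the median r between deviations of mice from their group means. Same-numbered mice of different groups had r from -0.0203 to 0.0541 (15 pairs, median -0.00361). Mice with different numbers had r from -0.0448 to 0.0275 (60 pairs, median 0.00237). With the replicate number as a block 0 windows and 0 sites in orphan windows were called in each comparison.

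Unknown depth limits what can be seen, and 342 orphan windows had no site with a value in all mice.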
